A study of Homo sapiens with 6 samples.

Results

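The 10 genes described here are parts and targets of the YAP-TEAD pathway, chosen by gene symbol: YAP1, WWTR1, TEAD1, TEAD4, AJUBA, LATS2, AMOTL2, CTGF, CYR61 and ANKRD1. Each was found under that symbol, on a line of its own, among 24462 symbols in the deposited counts. YAP1 and TAZ, the product of WWTR1, are coactivators that cannot bind DNA and reach their target genes through the TEAD transcription factors. The Hippo kinases LATS1 and LATS2 phosphorylate YAP1 and TAZ, which holds them in the cytoplasm, so the pathway is mostly set at the level of protein, not RNA. CTGF and CYR61, now named CCN2 and CCN1, and ANKRD1 are the targets most often read as its output, and in breast cancer cells the pathway is known for growth and invasion.

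RNA was sequenced from 3 groups of 2 libraries, all labelled as MDA-MB231, a line of triple negative breast cancer from ATCC. The ELK3-labelled libraries come from cells with a stable ELK3 knockdown, made with retroviruses that carry an shRNA, 48 hours after transfection of 1 µg of the plasmid pLenti-cMyc-DDK-ELK3 with Lipofectamine. The vector-labelled libraries come from the same knockdown cells, 48 hours after transfection of 1 µg of pLenti-cMyc-DDK. The controls are cells infected with a retrovirus made from a control plasmid, with no plasmid transfection or time recorded, so a comparison with them holds the labelled knockdown and the transfection together. Whether each line is a single clone and whether replicates are separate cultures is not stated, and the spread behind the p-values may be technical.

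ELK3, the targeted gene, ran against the labels. It had 20.4 and 22.6 counts per 1000000 counts (CPM, scaled by TMM) in the ELK3-labelled libraries, against 758.9 and 697.2 CPM in the vector-labelled ones and 128.6 and 123.9 CPM in the controls. The column headings inside the count files read KD for the libraries titled with ELK3 and KD+E for those titled with the vector, the reverse of the titles. By these headings ELK3 was highest in the KD+E libraries and lowest in the KD libraries. Groups follow the titles throughout. If the titles rather than the headings are crossed, every difference between the ELK3-labelled and vector-labelled libraries has the same size and the opposite sign, and their comparisons with controls change places. Library totals ran from 4884483 to 9131214 counts, and 15386 genes had enough counts to be tested, all 10 pathway genes among them.

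Markers of the cell line also moved with the groups. Of 10 marker genes of the MDA-MB-231 line, 10 fell in the ELK3-labelled and 10 in the vector-labelled libraries against the controls, with summed levels of 731.9 to 781.2 CPM in the ELK3-labelled, 845.2 to 866.8 CPM in the vector-labelled and 4471 to 4712 CPM in the control libraries. Of 10 marker genes of HEK293, a line from embryonic kidney, 9 were tested and all 9 rose in both comparisons, with summed levels of 1333 to 1352 CPM in the ELK3-labelled, 811.3 to 866.6 CPM in the vector-labelled and 186.3 to 187.1 CPM in the control libraries. The untested one was the kidney factor gene PAX2, with 0 counts in the controls. Over all genes tested, 31.8% rose and 30.8% fell in the ELK3-labelled libraries against controls. In the vector-labelled libraries 37% rose and 35.3% fell. These marker lists were chosen with earlier results of these data known, so their counts are a description only. A difference in cell line and the labelled treatment cannot be told apart in the comparisons with controls given below. Nor can fewer cells of a kind and less RNA per cell be told apart in such bulk libraries. Fibroblast markers summed to at most 101.7 CPM and endothelial markers to at most 97.2 CPM in any library. By group, the fibroblast sums were 81.87 to 90.48 CPM (ELK3-labelled), 85.64 to 101.7 CPM (vector-labelled) and 58.35 to 59.56 CPM (controls). Of the 7 tested, 3 rose and 1 fell in the ELK3-labelled libraries against controls, and 3 rose and 0 fell in the vector-labelled ones. COL1A1, COL3A1 and LUM rose in both. DCN fell in the ELK3-labelled libraries, but not with library totals used without scaling. Endothelial markers summed to 22.6 to 25.3 CPM in the ELK3-labelled, 30.6 to 34.5 CPM in the vector-labelled and 92.9 to 97.2 CPM in the control libraries. Of the 8 endothelial markers tested, 0 rose, 2 fell and 6 were not called in the ELK3-labelled libraries against controls, and 1 rose, 3 fell and 4 were not called in the vector-labelled libraries. ROBO4, a receptor of an axon guidance family, and ESAM, an adhesion molecule, fell in both, and with averages of 43.7 and 30.7 CPM they made up most of the sum in the controls. Each of the other 8 listed genes averaged at most 8.8 CPM in every group. Among these KDR, a receptor of VEGF, fell in the vector-labelled libraries (adjusted p = 0.035), and VWF, a clotting protein, rose there (2.74 ± 1.32 CPM in the vector-labelled and 0.427 ± 0.308 CPM in the control libraries, adjusted p = 0.00119). The part of the fibroblast and endothelial lists in the results was not tested.

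Against the controls, 9 of the 10 pathway genes fell in the ELK3-labelled libraries and 9 fell in the vector-labelled libraries, and TEAD4 was not called in either. The calls use edgeR's quasi-likelihood test with an adjusted p under 0.05. The targets ANKRD1 and CYR61 changed most in the ELK3-labelled libraries, by 15.4-fold and 8.52-fold, and TEAD1 least among the called genes, by 1.57-fold. The background is wide: 62.6% of all genes tested were called in the comparison of ELK3-labelled libraries with controls, 31.8% as higher and 30.8% as lower. In the comparison of vector-labelled libraries with controls 72.3% were called, 37% as higher and 35.3% as lower. Of the called genes in the ELK3-labelled libraries 50.8% were higher than in controls, and 61.1% when library totals were used without scaling. Falls of at least 2-fold were called for 8 pathway genes in each comparison, where 12.2% of all genes had one in the ELK3-labelled and 19.4% in the vector-labelled libraries. The median log2 fold change of the 10 genes was -1.47 in the ELK3-labelled libraries, beside 0.02 over all genes tested, and -2.02 in the vector-labelled libraries, beside 0.05. These comparisons share the control libraries, so their values stand side by side and are not independent of each other.

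**Figure D1:**
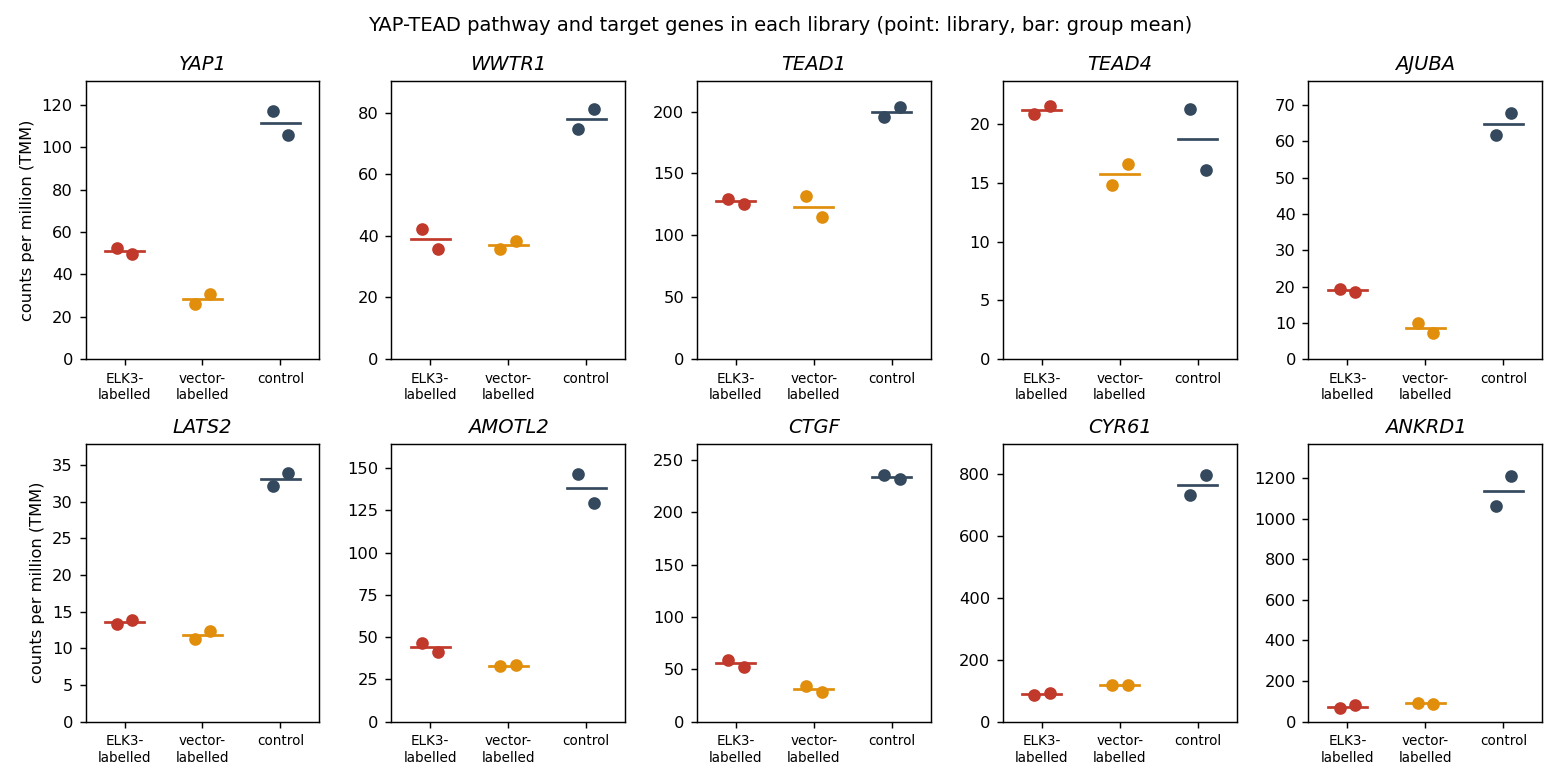
CPM, scaled by TMM, of the 10 genes in each library, with the ELK3-labelled, vector-labelled and control groups from left to right, a point per library and a bar at the group mean. In every panel but that of TEAD4 both controls lie above all 4 other libraries. The share of all genes tested that do so was not counted. Of all genes tested, 62.6% were called against controls in the ELK3-labelled and 72.3% in the vector-labelled libraries.

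Together the 10 genes held 0.0565% and 0.0547% of all counts in the ELK3-labelled libraries, 0.0518% and 0.0498% in the vector-labelled ones, against 0.252% and 0.266% in the controls. ANKRD1 alone supplied 12.3% and 15.1% of that sum in the ELK3-labelled libraries, 18.4% and 18.1% in the vector-labelled ones, and 39.6% and 42.1% in the controls. The make-up of the set thus differed as well as its size.

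YAP1 encodes the coactivator that gives the pathway its name. It had 52.3 and 49.8 CPM in the ELK3-labelled libraries, 25.9 and 30.6 CPM in the vector-labelled ones, and 117.1 and 105.8 CPM in the controls. The 3 groups did not overlap, with the vector-labelled libraries lowest. The log2 fold change against controls was -1.13 ± 0.1 (SE) in the ELK3-labelled libraries (adjusted p = 2.3e-11) and -1.99 ± 0.12 in the vector-labelled libraries (adjusted p = 1.22e-16). In the ELK3-labelled libraries YAP1 was 1.82-fold higher than in the vector-labelled ones (log2 fold change 0.86 ± 0.12, adjusted p = 2.06e-07).

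WWTR1, which encodes the paralogue TAZ, had 42.3 and 35.7 CPM in the ELK3-labelled libraries, 35.7 and 38.2 CPM in the vector-labelled ones, and 74.7 and 81.3 CPM in the controls. Only the controls stood apart. Its log2 fold changes against them were -1.01 ± 0.11 in the ELK3-labelled (adjusted p = 2.11e-09) and -1.08 ± 0.12 in the vector-labelled libraries (adjusted p = 6.91e-10). The difference between ELK3-labelled and vector-labelled libraries was 0.07, with a 95% interval of -0.18 to 0.32, and was not called. The files list WWTR1-AS1, whose exons overlap WWTR1 on the other strand in GENCODE 29, with 2 to 6 counts per library, and whether the counting used strand is not stated. By exon overlap in the same annotation, YAP1 and CTGF have an antisense neighbour, AMOTL2 a pseudogene and AJUBA a protein-coding gene on its own strand. The files list none of these neighbours.

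The balance within the coactivator pair followed from this. Of the counts of YAP1 and WWTR1 together, YAP1 took 55.3% (exact 95% binomial interval 51.2 to 59.3) and 58.2% (54.7 to 61.6) in the ELK3-labelled libraries. It took 42% (37.2 to 46.9) and 44.5% (39.1 to 49.9) in the vector-labelled ones, and 61.1% (57.8 to 64.2) and 56.6% (53.2 to 59.9) in the controls. The vector-labelled libraries lay below the others, and the ELK3-labelled libraries overlapped the controls. These shares are not corrected for transcript length and serve only to compare libraries, and their intervals cover counting error only.

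TEAD1 and TEAD4 encode DNA-binding partners of YAP1 and TAZ. TEAD1 had 129.3 and 125.7 CPM in the ELK3-labelled libraries, 131.5 and 114.5 CPM in the vector-labelled ones, and 195.7 and 203.6 CPM in the controls. The controls were higher, and the other groups overlapped. TEAD1 fell by 0.65 ± 0.09 on the log2 scale in the ELK3-labelled (adjusted p = 1.16e-07) and by 0.69 ± 0.09 in the vector-labelled libraries (adjusted p = 2.8e-08), and differed between these groups by 0.05 (95% interval -0.14 to 0.23), which was not called.

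TEAD4 had 20.8 and 21.6 CPM in the ELK3-labelled libraries, 14.8 and 16.6 CPM in the vector-labelled ones, and 21.3 and 16.1 CPM in the controls. Its controls spanned most of the range of the other libraries. The log2 fold change against controls was 0.18 (95% interval -0.17 to 0.53) in the ELK3-labelled and -0.26 (-0.64 to 0.12) in the vector-labelled libraries, neither of them called. Without control replicate 2 the vector-labelled libraries were called lower (log2 fold change -0.47, adjusted p = 0.0478). Against the vector-labelled libraries it was called 1.36-fold higher in the ELK3-labelled ones (log2 fold change 0.44 ± 0.17, adjusted p = 0.0252). That call ended without ELK3-labelled replicate 2 (adjusted p = 0.106), without vector-labelled replicate 1 (0.177), by DESeq2 (0.173) and when at least 10 CPM were required in 2 libraries (0.0531). Of the counts of TEAD4 and TEAD1 together, TEAD4 took 13.9% (exact 95% binomial interval 11.7 to 16.2) and 14.7% (12.8 to 16.6) in the ELK3-labelled libraries. It took 10.1% (8.34 to 12.2) and 12.7% (10.2 to 15.5) in the vector-labelled ones, and 9.83% (8.08 to 11.8) and 7.34% (5.82 to 9.11) in the controls. The ELK3-labelled shares were the highest and the control shares the lowest.

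**Figure D2:**
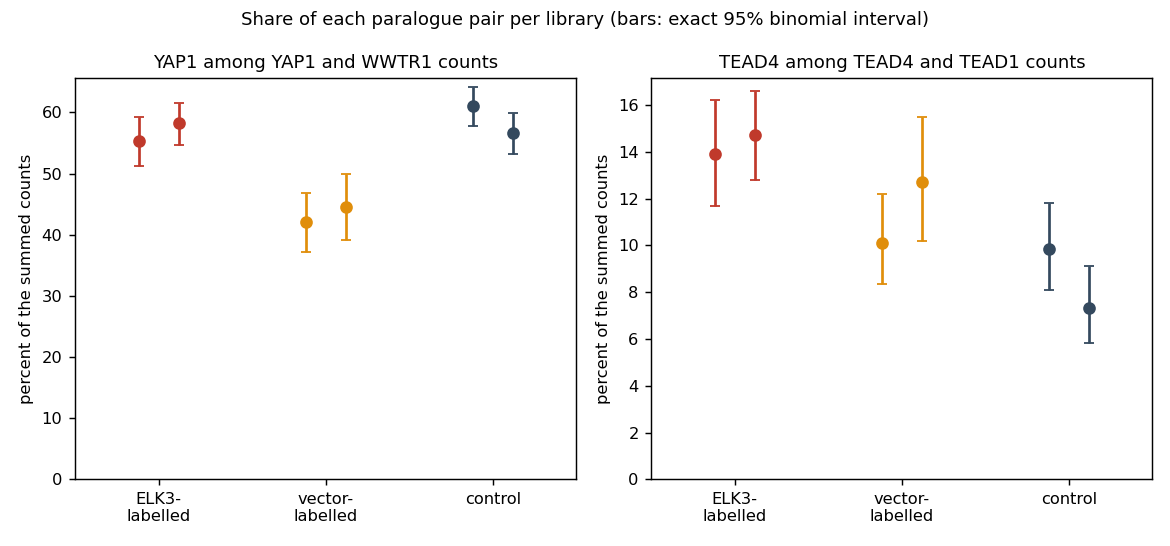
Percent of the summed counts of a paralogue pair taken by YAP1 (left) and by TEAD4 (right) in each library, grouped as ELK3-labelled, vector-labelled and control, with exact 95% binomial intervals. YAP1 took 42% and 44.5% in the vector-labelled libraries and at least 55.3% in the others, and TEAD4 took 13.9% and 14.7% in the ELK3-labelled libraries against 9.83% and 7.34% in the controls.

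AJUBA, LATS2 and AMOTL2 act on YAP1 and TAZ. AJUBA is a LIM-domain protein that binds LATS kinases and restrains them, LATS2 is the kinase that phosphorylates YAP1, and AMOTL2 is an angiomotin that can hold YAP1 outside the nucleus. LATS2 and AMOTL2 are also transcribed in response to YAP1, as a feedback.

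AJUBA had 19.2 and 18.6 CPM in the ELK3-labelled libraries, 9.99 and 7.2 CPM in the vector-labelled ones, and 61.9 and 68 CPM in the controls. The groups did not overlap and had the order of YAP1, with the vector-labelled libraries lowest. Against controls AJUBA had a log2 fold change of -1.78 ± 0.14 in the ELK3-labelled (adjusted p = 3.98e-13) and -2.89 ± 0.16 in the vector-labelled libraries (adjusted p = 6.24e-17). Its difference between ELK3-labelled and vector-labelled libraries, 1.11 ± 0.18 (adjusted p = 3.85e-06), was the largest of the 10 genes.

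LATS2 had 13.4 and 13.9 CPM in the ELK3-labelled libraries, 11.3 and 12.4 CPM in the vector-labelled ones, and 32.2 and 34 CPM in the controls. Both controls were far above the other 4 libraries. It was 2.42-fold lower than controls in the ELK3-labelled (log2 fold change -1.27 ± 0.16, adjusted p = 2.23e-08) and 2.8-fold lower in the vector-labelled libraries (-1.49 ± 0.17, adjusted p = 2.35e-09). The ELK3-labelled libraries lay just above the vector-labelled ones, with a difference of 0.21 (95% interval -0.16 to 0.58) that was not called.

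AMOTL2 had 46.4 and 41.5 CPM in the ELK3-labelled libraries, 33.1 and 33.4 CPM in the vector-labelled ones, and 146.6 and 129.5 CPM in the controls. No group overlapped another. Its log2 fold change against controls was -1.66 ± 0.1 in the ELK3-labelled (adjusted p = 1.11e-15) and -2.05 ± 0.11 in the vector-labelled libraries (adjusted p = 1.4e-17). It was 1.32-fold higher in the ELK3-labelled than in the vector-labelled libraries (0.4 ± 0.12, adjusted p = 0.00447).

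CTGF, CYR61 and ANKRD1 are the target genes of the set. CTGF and CYR61 encode secreted matrix-associated proteins of the CCN family, and ANKRD1 a nuclear and sarcomeric ankyrin-repeat protein named for heart muscle. Promoters of pathway genes are shown because TEAD factors bind a short core motif, GGAATG, or CATTCC on the other strand. RefSeq promoter windows of GRCh38.p14, 300 bases from 250 before the transcript start to 50 after, were matched by symbol for 7 of the 10 genes, which have 10 windows. The TEAD core was searched on both strands and is in capitals.

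CTGF (as CCN2, chr6:131951323-131951622, minus strand): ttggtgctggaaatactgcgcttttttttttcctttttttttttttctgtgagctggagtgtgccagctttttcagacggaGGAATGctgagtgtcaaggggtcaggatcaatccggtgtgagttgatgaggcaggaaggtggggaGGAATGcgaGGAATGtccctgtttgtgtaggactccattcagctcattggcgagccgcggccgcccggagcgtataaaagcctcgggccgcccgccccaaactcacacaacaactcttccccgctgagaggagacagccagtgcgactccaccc

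ANKRD1 (chr10:90921038-90921337, minus strand): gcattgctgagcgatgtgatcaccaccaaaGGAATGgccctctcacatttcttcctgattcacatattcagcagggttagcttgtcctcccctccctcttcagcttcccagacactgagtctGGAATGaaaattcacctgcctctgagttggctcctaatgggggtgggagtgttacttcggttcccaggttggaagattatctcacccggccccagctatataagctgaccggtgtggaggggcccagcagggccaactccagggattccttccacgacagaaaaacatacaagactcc

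AMOTL2, second start (chr3:134374398-134374697, minus strand): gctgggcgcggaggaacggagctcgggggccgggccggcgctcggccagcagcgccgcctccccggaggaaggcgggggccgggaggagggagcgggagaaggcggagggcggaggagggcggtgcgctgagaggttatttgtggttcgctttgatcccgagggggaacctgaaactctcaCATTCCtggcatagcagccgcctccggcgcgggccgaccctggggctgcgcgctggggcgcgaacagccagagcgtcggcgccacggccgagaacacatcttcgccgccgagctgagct

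LATS2 (chr13:21061537-21061836, minus strand): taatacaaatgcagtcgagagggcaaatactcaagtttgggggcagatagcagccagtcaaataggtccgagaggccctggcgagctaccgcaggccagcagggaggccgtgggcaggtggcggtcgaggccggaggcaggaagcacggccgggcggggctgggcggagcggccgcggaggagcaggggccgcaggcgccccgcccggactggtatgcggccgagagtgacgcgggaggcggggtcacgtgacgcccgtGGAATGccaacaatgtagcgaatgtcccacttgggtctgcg

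AJUBA, second start (chr14:22976793-22977092, minus strand): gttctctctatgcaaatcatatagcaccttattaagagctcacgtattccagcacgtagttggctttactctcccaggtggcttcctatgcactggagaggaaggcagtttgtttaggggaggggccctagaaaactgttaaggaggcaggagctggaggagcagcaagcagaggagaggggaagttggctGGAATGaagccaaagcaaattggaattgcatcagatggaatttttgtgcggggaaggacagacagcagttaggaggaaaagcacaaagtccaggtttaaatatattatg

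YAP1 (chr11:102110197-102110496, plus strand): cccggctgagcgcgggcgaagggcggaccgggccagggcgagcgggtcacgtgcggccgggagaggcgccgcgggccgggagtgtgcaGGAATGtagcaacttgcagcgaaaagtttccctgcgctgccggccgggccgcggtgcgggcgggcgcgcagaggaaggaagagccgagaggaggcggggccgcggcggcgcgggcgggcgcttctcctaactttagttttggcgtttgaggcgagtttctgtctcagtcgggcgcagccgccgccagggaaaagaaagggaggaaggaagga

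The core stood in 6 of the 10 windows, those printed, and in 14% of the 35116 windows of the table. CTGF held 3 copies, at bases -169, -104 and -95 from the start, where 0.128% of all windows hold at least 3, and ANKRD1 held 2, at -220 and -128, where 1.37% hold at least 2. AMOTL2 held the core on the opposite strand at -69, while LATS2 (9), AJUBA (-59) and YAP1 (-162) held it on the strand of the gene. WWTR1 held none of these letters in its windows. The motif CCGGAA, a core bound by ETS factors such as ELK3, stood in 0 of the 10 windows and in 17.2% of all, and the CArG box, bound by SRF, in 0 and in 1.29%. Such matches describe letters in a window, not binding, and the windows leave out distal sites. The genes were chosen as parts and targets of the pathway, so their share of windows with the TEAD core says nothing about these libraries. TEAD1, TEAD4 and CYR61 had no matched window.

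**Figure D3:**
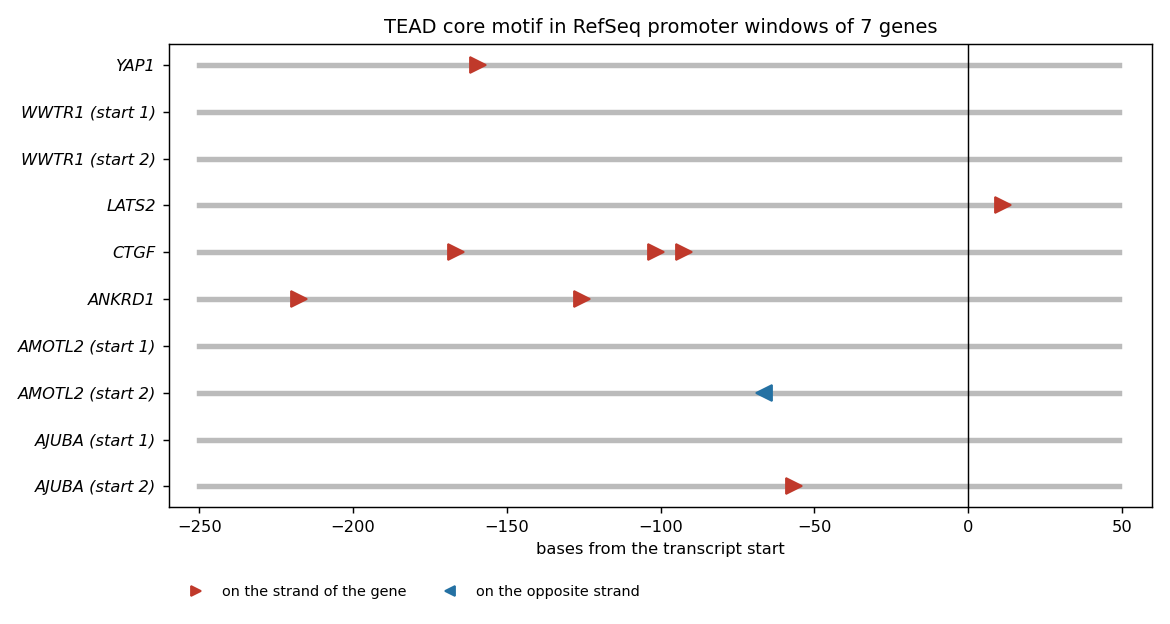
Position of the TEAD core motif, in bases from the transcript start, in each RefSeq promoter window of 7 genes, with a red arrowhead on the strand of the gene and a blue one on the opposite strand. CTGF has 3 matches, ANKRD1 has 2, and WWTR1 has none.

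CTGF, with 3 copies of the core, had 59.3 and 52.2 CPM in the ELK3-labelled libraries, 34.4 and 28 CPM in the vector-labelled ones, and 235.5 and 231.6 CPM in the controls. As with YAP1, the vector-labelled libraries were lowest and no group overlapped another. It was 4.21-fold lower than controls in the ELK3-labelled (log2 fold change -2.07 ± 0.1, adjusted p = 6.3e-19) and 7.41-fold lower in the vector-labelled libraries (-2.89 ± 0.11, adjusted p = 7.85e-22). It was 1.76-fold higher in the ELK3-labelled than in the vector-labelled libraries (0.82 ± 0.12, adjusted p = 3.05e-07).

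CYR61, which encodes a matrix protein bound by integrins, had 87 and 92.1 CPM in the ELK3-labelled libraries, 117.2 and 117.9 CPM in the vector-labelled ones, and 732.1 and 796.7 CPM in the controls. Here the order of the lower groups was turned round, with the ELK3-labelled libraries lowest. Its log2 fold change against controls was -3.09 ± 0.09 in the ELK3-labelled (adjusted p = 5.89e-25) and -2.7 ± 0.09 in the vector-labelled libraries (adjusted p = 2.09e-23). It fell by 0.39 ± 0.09 on the log2 scale in the ELK3-labelled against the vector-labelled libraries (adjusted p = 0.000438).

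ANKRD1, whose window holds 2 copies of the core, had 65.7 and 80.5 CPM in the ELK3-labelled libraries, 93.4 and 87.8 CPM in the vector-labelled ones, and 1062 and 1210 CPM in the controls. It also had its lowest values in the ELK3-labelled libraries, close to those of the vector-labelled libraries. It was 15.4-fold lower than controls in the ELK3-labelled (log2 fold change -3.95 ± 0.1, adjusted p = 2.03e-26) and 12.5-fold lower in the vector-labelled libraries (-3.65 ± 0.1, adjusted p = 1.8e-25). The difference between ELK3-labelled and vector-labelled libraries was -0.3 ± 0.1 (adjusted p = 0.0118). Leaving out ELK3-labelled replicate 1 ended that call (-0.17, adjusted p = 0.262), as did leaving out replicate 1 of the vector-labelled libraries (-0.25, adjusted p = 0.115).

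The comparison of ELK3-labelled with vector-labelled libraries, both transfected, sets the plasmid labels against each other. ELK3 itself was 33.6-fold lower in the ELK3-labelled libraries (log2 fold change -5.07 ± 0.11). A gene given as risen here was therefore higher in the libraries with less ELK3 RNA. The pathway genes did not move one way in this comparison. YAP1, TEAD4, AJUBA, AMOTL2 and CTGF rose, by 1.32-fold to 2.15-fold, CYR61 and ANKRD1 fell, by 1.31-fold and 1.23-fold, and WWTR1, TEAD1 and LATS2 were not called. Thus 5 rose and 2 fell, where 59.6% of all genes were called, 30% as higher and 29.6% as lower. For each of the 10 genes except TEAD4 the change was smaller than in either comparison with controls. The median log2 fold change was 0.3, beside -0.02 over all genes. In the same comparison 6 of 9 HEK293 markers rose and 0 fell, and of the 10 MDA-MB-231 markers 1 rose and 4 fell. The part of these markers in the result was not tested.

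**Figure D4:**
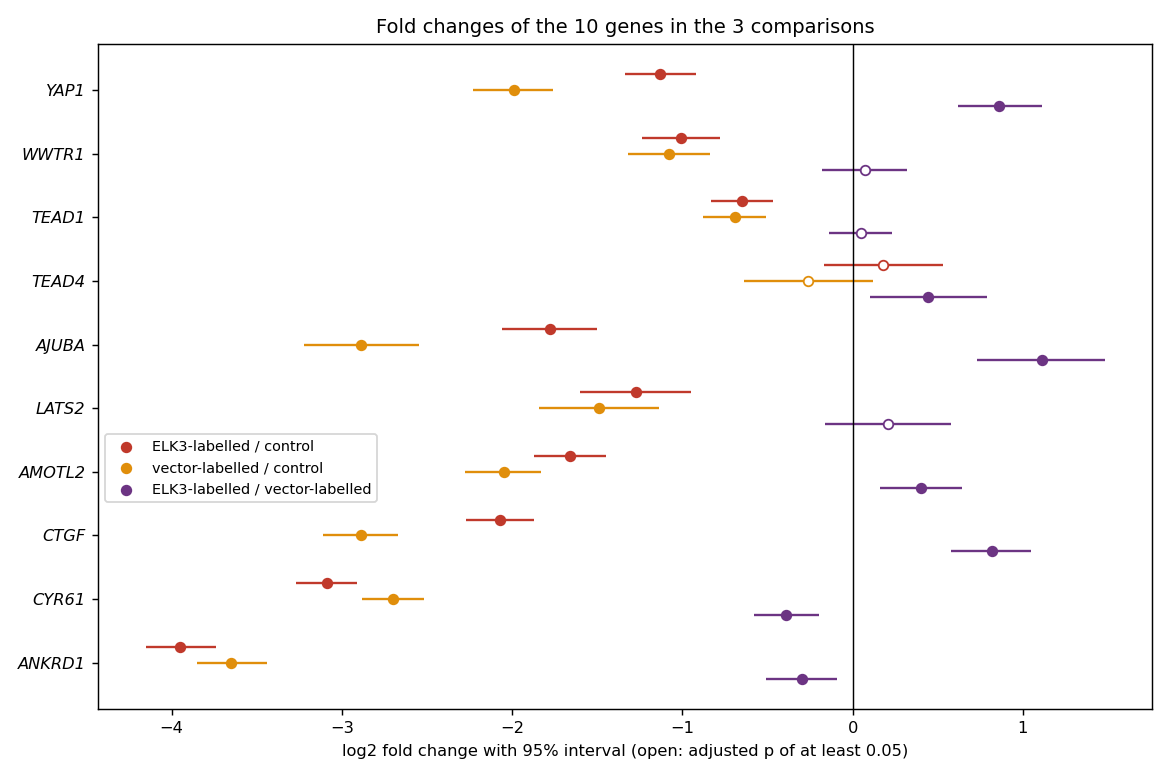
Log2 fold change of the 10 genes with its 95% interval in the comparisons of ELK3-labelled libraries with controls, vector-labelled libraries with controls, and ELK3-labelled with vector-labelled libraries, with open points for genes that were not called. Against controls 9 genes lie left of 0 in both comparisons, and between ELK3-labelled and vector-labelled libraries 5 called genes lie right of 0 and 2 left.

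Other targets of the coactivators were read from the published YAP/TAZ signature, less the 5 genes already described, which leaves 17. Against controls 16 fell and 0 rose in the ELK3-labelled libraries (median log2 fold change -1.97), and 13 fell and 0 rose in the vector-labelled libraries (median -1.65). With library totals in place of TMM, 14 and 12 fell. Over all genes tested, with TMM, 30.8% fell in the ELK3-labelled libraries and the median was 0.02. In the vector-labelled libraries 35.3% of all genes fell and the median was 0.05. AXL, a receptor kinase, had a log2 fold change of -5.76 ± 0.12 in the ELK3-labelled and -5.48 ± 0.12 in the vector-labelled libraries. NT5E, the ectoenzyme CD73 that makes adenosine, averaged 6.1 ± 0.363 CPM in the ELK3-labelled, 9.12 ± 1.26 CPM in the vector-labelled and 263.3 ± 19 CPM in the control libraries (SD, n = 2 each). F3, the tissue factor that starts coagulation, was 24.8-fold lower in the ELK3-labelled and 34-fold lower in the vector-labelled libraries than in controls. MYOF, a membrane repair protein of the ferlin family, was 12.4-fold lower in the ELK3-labelled and 10.5-fold lower in the vector-labelled libraries. ARHGEF17 was not called in either, and IGFBP3, GADD45A and NUAK2 were not called in the vector-labelled libraries.

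Between ELK3-labelled and vector-labelled libraries 3 of the 17 targets rose and 8 fell (median -0.25), and with library totals 3 rose and 6 fell. Over all genes 30% rose and 29.6% fell, so the share called among the targets is near the background of 59.6%. Those that rose were FJX1, a secreted kinase-like protein (log2 fold change 1.26 ± 0.14), FOXF2, a forkhead factor (1.16 ± 0.21), and CRIM1, a BMP-binding membrane protein (0.26 ± 0.11). The largest change of the 17 was a fall, that of NUAK2 (-1.75 ± 0.27).

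Among the other factors of the TEAD family and the VGLL cofactors that compete for them, 4 of 6 were tested, and VGLL1 had 0 counts in every library. TEAD2 averaged 132.5 ± 11.3 CPM in the ELK3-labelled, 72 ± 0.309 CPM in the vector-labelled and 57.3 ± 10.1 CPM in the control libraries, and rose against controls by 1.2 ± 0.11 in the ELK3-labelled and 0.33 ± 0.12 in the vector-labelled libraries on the log2 scale. TEAD3 averaged 15.6 ± 2.75 CPM in the ELK3-labelled, 5.93 ± 0.75 CPM in the vector-labelled and 48.2 ± 4.85 CPM in the control libraries, 3.14-fold lower than controls in the ELK3-labelled and 8-fold lower in the vector-labelled libraries. The 4 TEAD genes therefore differed in direction, with TEAD1 and TEAD3 lower than controls, TEAD2 higher and TEAD4 not called. VGLL3 rose by 1.04 ± 0.32 in the ELK3-labelled and 1.53 ± 0.32 in the vector-labelled libraries, and VGLL4, a repressor of TEAD, by 0.27 ± 0.12 in the ELK3-labelled libraries, with no call in the vector-labelled ones (0.05 ± 0.12). Both TEAD2 and TEAD3 rose in the ELK3-labelled against the vector-labelled libraries, by 0.87 ± 0.1 and 1.35 ± 0.21 on the log2 scale.

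Of 14 genes of the Hippo kinase core and its upstream kinases, 4 rose and 6 fell in the ELK3-labelled libraries against controls (median -0.12, and 0.04 with library totals), and 3 rose and 8 fell in the vector-labelled libraries (median -0.6). Over all genes tested, 31.8% rose and 30.8% fell in the ELK3-labelled and 37% rose and 35.3% fell in the vector-labelled libraries, so the counts in the ELK3-labelled libraries are close to that background. LATS1 rose in the ELK3-labelled libraries by 0.91 ± 0.14 on the log2 scale and was not called in the vector-labelled ones (0.04 ± 0.16). LATS2, described above, fell in both. NF2, or merlin, a membrane scaffold that activates the LATS kinases, was 3.78-fold higher than controls in both, at 47.3 ± 1.67 CPM in the ELK3-labelled, 47.4 ± 0.507 CPM in the vector-labelled and 12.5 ± 1.15 CPM in the control libraries. FRMD6 and WWC1, known also as willin and KIBRA, act with merlin at the membrane. FRMD6 was 5.96-fold lower than controls in the ELK3-labelled and 8.4-fold lower in the vector-labelled libraries, and WWC1 was 3.78-fold lower in the ELK3-labelled and 5.76-fold lower in the vector-labelled libraries. STK4, the kinase MST1 that phosphorylates LATS kinases, averaged 97.2 ± 2.98 CPM in the ELK3-labelled, 42.6 ± 1.94 CPM in the vector-labelled and 159.2 ± 10.8 CPM in the control libraries. Between ELK3-labelled and vector-labelled libraries 8 of the 14 rose and 1 fell (median 0.43), STK4 by 1.19 ± 0.1 and the exception, the upstream kinase TAOK3, by -1.06 ± 0.09. Over all genes 59.6% were called in that comparison, 30% as higher and 29.6% as lower.

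Of 10 genes of angiomotins, LIM proteins and cell polarity, 9 were tested. In the ELK3-labelled libraries 3 rose and 3 fell against controls (4 and 2 with library totals), and in the vector-labelled libraries 3 rose and 5 fell (4 and 5 with library totals). The counts in the ELK3-labelled libraries are near the background of 31.8% higher and 30.8% lower over all genes. In the vector-labelled libraries that background was 37% higher and 35.3% lower. AMOT, the founding angiomotin, was 13-fold higher than controls in the ELK3-labelled libraries and 6.92-fold higher in the vector-labelled libraries, while its relative AMOTL2 fell in both. FAT1, a giant cadherin that acts upstream of the Hippo kinases, was 2.22-fold lower than controls in the ELK3-labelled and 3.72-fold lower in the vector-labelled libraries. WTIP, a LIM protein of the AJUBA family, averaged 14.1 ± 1.25 CPM in the ELK3-labelled, 5.33 ± 0.676 CPM in the vector-labelled and 11.6 ± 1.87 CPM in the control libraries, and was called lower than controls in the vector-labelled libraries (-1.14 ± 0.26). CRB3, a polarity protein of the apical membrane, stayed at or under 2.52 CPM on average in every group. Between ELK3-labelled and vector-labelled libraries 4 of these genes rose, among them AMOT, FAT1 and WTIP, and 1, CRB3, fell. Over all genes 30% rose and 29.6% fell in that comparison.

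**Figure D5:**
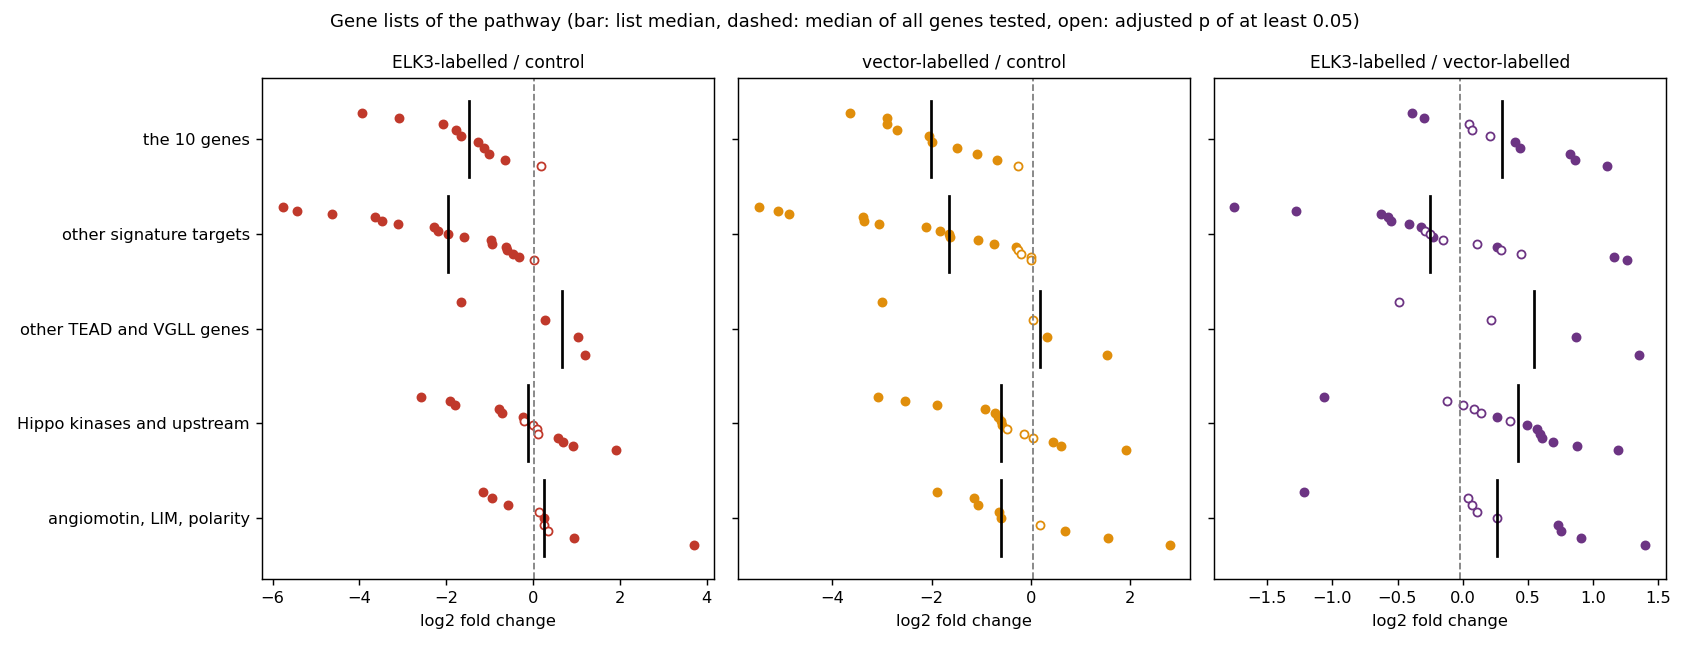
Log2 fold change of each tested gene of the 10 genes and of 4 further lists of the pathway, in the comparisons of ELK3-labelled libraries with controls, vector-labelled libraries with controls, and ELK3-labelled with vector-labelled libraries, with a bar at the list median, a dashed line at the median of all genes tested and open points for genes not called. The medians of the other signature targets lie at -1.97 and -1.65 against controls and at -0.25 between ELK3-labelled and vector-labelled libraries, where the Hippo kinase list lies at 0.43.

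Genes whose profile over the 6 libraries lay nearest to those of the targets were sought by Euclidean distance of centred log2 CPM. The 10 pathway genes and symbols starting with LOC were left out beforehand, so a pathway gene could not appear. That left 10429 genes with a mean of at least 10 CPM. None of the nearest genes is in the other lists. Nearest to ANKRD1 were GNA15, IFI16 and UNC13D, at distances of 0.35, 0.42 and 0.49. IFI16, a nuclear DNA sensor, averaged 8.81 CPM in the ELK3-labelled, 11.2 CPM in the vector-labelled and 131.2 CPM in the control libraries. Nearest to CTGF were HEG1, LAMB2 and ENC1, at 0.23, 0.26 and 0.26, and LAMB2, a laminin chain, averaged 9.37 CPM in the ELK3-labelled, 5.29 CPM in the vector-labelled and 37.7 CPM in the control libraries. Nearest to CYR61 were DNMBP, IGFBP4 and LGALS1, at 0.19, 0.27 and 0.28, and IGFBP4, a binding protein of insulin-like growth factors, averaged 45 CPM in the ELK3-labelled, 57.1 CPM in the vector-labelled and 434.4 CPM in the control libraries. With 3 groups of 2 libraries many genes can share such a profile, so the distance is a description only.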

How the data were processed

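The deposited values are raw counts per gene symbol and library, from libraries made with a Lexogen kit that the labels call Quant-Seq. Per the submitters' processing notes, Bowtie2, edgeR and hg19 were used. Tool versions, how reads were counted, the gene annotation and filters are not given in the sources used here. Lines sharing a symbol (286 symbols, none of the 10 genes) were summed.

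The analysis ran in edgeR 4.0.16 under R 4.3.3: genes passing filterByExpr (15386), TMM scaling, and 1 robust quasi-likelihood fit of all 6 libraries with a mean per group (3 residual degrees of freedom, common biological coefficient of variation 0.0645). Tests were two-sided, with Benjamini-Hochberg adjustment over every gene tested (threshold 0.05). SEs and 95% intervals come from that fit. CPM are TMM-scaled. A count of 3, the limit that 0 counts allow, stands for 0.319 to 0.645 CPM per library. On simulated data with 100 genes changed by 1 log2 unit and 100 by 2, the fit recovered 89 and 99 between ELK3-labelled libraries and controls, with 6 false calls among all 194 calls. It recovered 93 and 99 between vector-labelled libraries and controls (10 false among 202), and 95 and 100 between ELK3-labelled and vector-labelled libraries (10 false among 205). These simulations changed few of 14349 to 14376 genes, up and down equally, with a common dispersion. In the data 59.6% to 72.3% of genes were called, so the simulated false calls do not give the error rate there.

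The 10 genes and the lists were chosen with earlier results of these data known. The text names the 10 genes, ELK3, up to 4 genes per list with the largest change against controls, and the 3 nearest profiles per target. It also names some, but not all, members of counts of 5 or fewer. NUAK2, IGFBP3 and GADD45A, TAOK3, ROBO4 and ESAM fall under those rules. Each replicate was taken as a library. Replicates within a group differed beyond counting noise (chi-square of 2.3 to 3.21 per degree of freedom), which does not show that they are separate cultures. Alternatives were a replicate block, other scalings, DESeq2 1.42.0, limma-voom (limma 3.58.1), other filters, only the 4 libraries compared, leaving out symbols on several lines, and each library left out. Python 3.11.15 with pandas 2.3.3 and matplotlib 3.10.9 searched promoters and drew plots.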

Additional observations from a re-analysis of the deposited data

How the results depend on the processing

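Over 15 alternatives, the 9 pathway genes called lower than controls kept their direction and their side of the threshold in both comparisons with controls. The number of pathway genes called was 9 in the comparison of ELK3-labelled libraries with controls throughout, 9 to 10 with each library left out in that of vector-labelled libraries with controls, and 5 to 7 with each library left out between ELK3-labelled and vector-labelled libraries. In the last comparison 141 of 150 values for single genes and alternatives kept direction and call. The replicate number as a block left 9, 9 and 7 called, so it changed no count. The numbers share no source in the labels, and replicate differences correlated by -0.056 to 0.033 between groups, so the block is not a pairing. Values near 0 changed sign and the cause was not tested: TEAD4 against controls in the ELK3-labelled libraries without control replicate 2 (-0.01, and 0.39 without control replicate 1), and between ELK3-labelled and vector-labelled libraries WWTR1 without ELK3-labelled replicate 1 (-0.04, and 0.21 without replicate 2) and TEAD1 with a filter of 10 CPM (-0.02) or without vector-labelled replicate 2 (-0.03, and 0.16 without replicate 1). DESeq2 and the filter of 10 CPM each called 6 pathway genes between ELK3-labelled and vector-labelled libraries. Library totals moved the median of all genes against controls to 0.18 in both the ELK3-labelled and the vector-labelled libraries. Depth limits the less abundant genes: AJUBA had as few as 36 counts in a library and LATS2 62, and SEs of the log2 fold change between ELK3-labelled and vector-labelled libraries were 0.18 for both, against 0.09 for TEAD1.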
